A study of Mus musculus with 12 samples.

Results

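This report describes 9 genes of lymphocyte homing and of lymph node cells. They are the stromal chemokines Ccl19, Ccl21a and Cxcl13, the venule genes Chst4 and Glycam1, the lymphocyte receptors Ccr7, Cxcr5 and Il7r, and the macrophage scavenger receptor Marco. They were chosen by name, with earlier results of these data known, and are 9 of the 27179 genes in each of the authors' 2 deposited tables. RNA was sequenced from inguinal and epididymal white adipose tissue (iWAT and eWAT) of C57/BL6 mice, with 3 samples from mice given saline and 3 from mice given a GIP analog in each depot, 12 samples in 4 groups. The analog, (D-Ala2)GIP[Lys37PAL], is an acylated agonist of the receptor for the gut hormone GIP. All mice received 3 injections under the skin during 10 days on chow and then 5 injections during 2 weeks of high-fat diet (HFD). The analog mice received 2 pmol/kg in each injection on HFD, and on chow they had saline first and a single sensitizer dose of the analog last. No genetic alteration is named for any group, and all groups were on HFD at the end.

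The values used are averages. For each depot the table gives 1 average log2 CPM per gene, CPM being a read count scaled to library size, which the authors' tool, edgeR, takes over all libraries of a comparison, here saline and analog together. The columns of values per sample carry names that match no sample label, so they were not used, and the effect of the analog on these genes was not analysed here. An average of this kind has no spread over samples and no test, and it can be carried by a few libraries. When the files were opened, the unlabelled columns were seen to spread widely within a table for lymphocyte genes, so the averages of Ccr7, Cxcr5, Il7r, Cxcl13 and the B and T cell markers may not describe a typical library. This spread was not measured, because those columns could not be tied to samples. The tables of both depots were also normalized separately, so each difference between iWAT and eWAT below is a description of the averages. Adipocyte markers were high in both tables, which checks the tissue but does not tell the depots apart: Adipoq stood at 3057 average CPM in iWAT and 3655 in eWAT, and Fabp4 at 15453 and 16224. Many genes share the lowest value of a table, read here as having no counts in it, which was −2.82 for 6123 genes in iWAT and −2.33 for 6814 genes in eWAT. Whether the inguinal lymph node was left in the dissected fat is not given in the sources used here. In whole tissue, fewer cells of a type and less RNA per cell cannot be told apart.

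Lymph nodes recruit cells by address signals. Naive T cells carry the chemokine receptor CCR7 and follow CCL19 and CCL21, which stromal cells and high endothelial venules display, while B cells carry CXCR5 and follow CXCL13 into follicles. Entry from blood begins when lymphocytes bind sulfated sugars on venule proteins such as GlyCAM-1, and survival of naive T cells then depends on interleukin-7, whose receptor chain is encoded by Il7r.

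Of the 9 genes, 8 lay above the lowest value in both depots and reached an average of 1 CPM in at least 1 of them, the rule for comparing depots, which 14284 genes met. Among these 8, 7 were over 2-fold higher in iWAT and 1, Chst4, was over 2-fold higher in eWAT. Over all compared genes, 7.18% were over 2-fold higher in iWAT and 4.46% were over 2-fold higher in eWAT. Because the 9 genes were chosen with earlier results of these data known, these shares are a description and no test. The median difference of the 8 genes, iWAT minus eWAT, was 2.75 on the log2 scale, against 0.02 over all compared genes, whose central 50% ran from −0.28 to 0.30. Ccl19 met the rule only through its level in iWAT, so its direction was fixed by the rule. The same holds for any compared gene that was under 1 CPM in 1 depot. Glycam1 reached 1 CPM only in iWAT and sat at the lowest value in eWAT, so it was not among the 8.

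**Figure D1:**
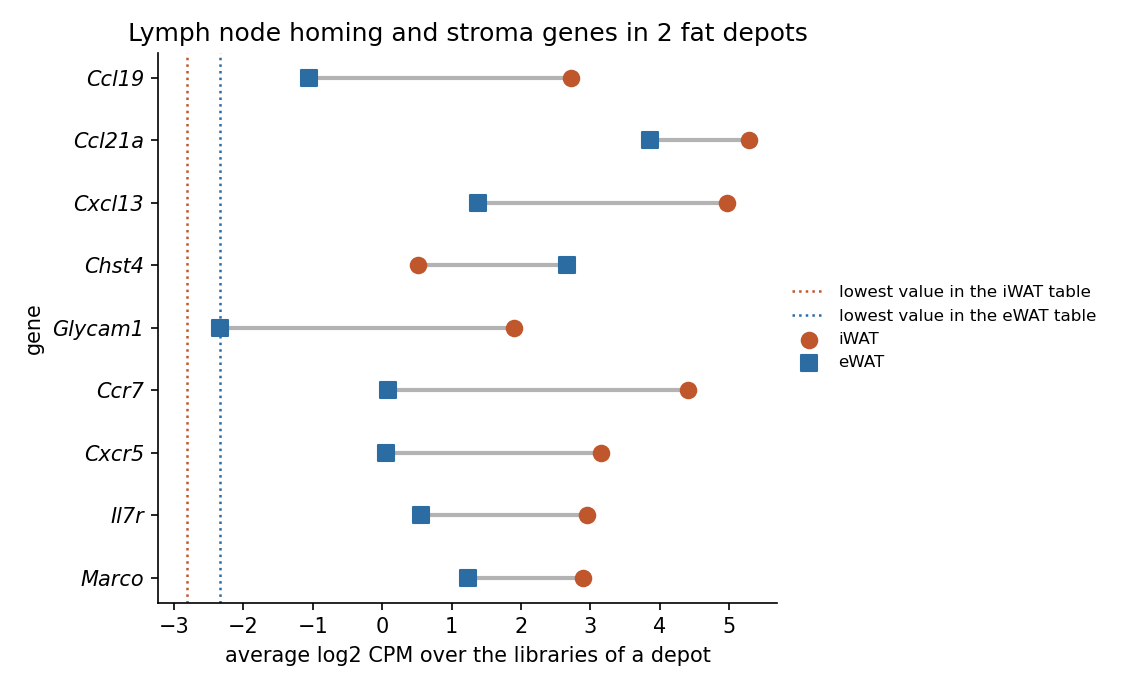
Average log2 CPM (horizontal axis) of the 9 genes (vertical axis) in iWAT (circles) and eWAT (squares), joined by a grey line, with the lowest value of each table as a dotted line. Chst4 is the gene whose square lies to the right of its circle, at 2.66 against 0.52, and the square of Glycam1 lies on the dotted line of eWAT.

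The CCR7 ligands differed in how far apart the depots stood. Ccl19 (gene 24047, chr4:42754525-42756365 of GRCm38, minus strand) averaged 2.72 log2 CPM in iWAT and −1.05 in eWAT, a difference of 3.77 or 13.7-fold. Ccl21a (gene 18829, chr4:42772860-42773991, minus strand) averaged 5.29 in iWAT and 3.86 in eWAT, a difference of 1.42 or 2.68-fold. Of all genes, 85.2% lay below Ccl21a in iWAT and 72.6% in eWAT. Among genes at 1 CPM or above in a depot, the median was 4.11 log2 CPM in iWAT and 4.12 in eWAT. Ccl21a lay above that median in iWAT and below it in eWAT, whereas Ccl19 was under 1 CPM in eWAT. The 2 genes are neighbours, 16494 bases apart. Both are transcribed from the same strand.

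Both genes have near copies on chromosome 4, and reads from a copy cannot always be assigned. Of the 831 windows of 40 bases in the Ccl21a transcript, 40 bases being the read length, 632 (76.1%) also occur in a transcript of another gene. These are Gm21541, which shares 632, Gm13304, which shares 623, and Ccl21b and Gm10591, which share 283 each. For the longest coding transcript of Ccl19 the shared windows were 458 of 734 (62.4%), the largest number with Gm2564. Il7r shared 85 of 3501 (2.43%), and the other 6 genes shared none. Pairs of reads that reach past such a window can still be placed, and the authors' rule for reads with several matches is not given in the sources used here. Levels of Ccl21a and Ccl19 are therefore uncertain between copies.

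**Figure D2:**
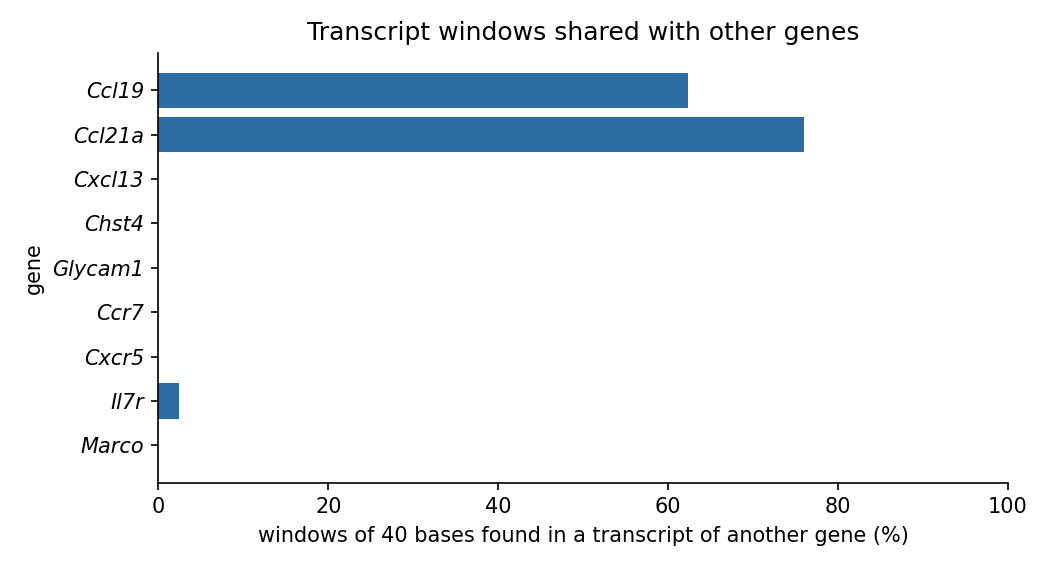
Share of the 40-base windows (horizontal axis, percent) of the longest coding transcript of each gene (vertical axis) that also occur in a transcript of another gene in the GENCODE vM21 annotation. The bars of Ccl21a and Ccl19 reach 76.1% and 62.4%, that of Il7r 2.43%, and 6 genes have no bar.

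The coding sequence of Ccl21a, 402 bases, differs from that of each of its 4 copies at 2 positions, T84A and C194T, counted from 1 at the A of the start codon, with the base of Ccl21a first, an identity of 99.5%. The second lies in codon 65, at the residue by which CCL21 with serine (Ccl21a) and CCL21 with leucine (Ccl21b) are told apart in mice. The stretches around both positions are printed for Ccl21a and Ccl21b because within the coding sequence these bases alone separate them. Gm10591, Gm13304 and Gm21541 have the same letters as Ccl21b in both stretches, and the capital marks the base that differs (GENCODE vM21, coding strand).
Ccl21a, coding bases 69 to 99: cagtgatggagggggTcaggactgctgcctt
Ccl21b, coding bases 69 to 99: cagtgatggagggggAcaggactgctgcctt
Ccl21a, coding bases 179 to 209: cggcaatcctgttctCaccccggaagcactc
Ccl21b, coding bases 179 to 209: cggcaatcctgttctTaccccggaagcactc

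The values listed for the copies do not stand for each copy alone, since all 363 windows of Ccl21b also occur in other genes. Ccl21b averaged 4.21 log2 CPM in iWAT and 3.30 in eWAT, a difference of 0.91. Gm13304 differed by 0.78, Gm10591 by 0.86 and Ccl21d, which GENCODE calls Gm21541, by 1.07. Summed with its 4 copies, Ccl21a came to 93.4 CPM in iWAT and 43.9 in eWAT, a log2 difference of 1.09 in place of 1.42 for Ccl21a alone. Since the rule for reads with several matches is not given, this sum may count a read more than once. Ccl21c sat at the lowest value of both tables. Ccl19-ps1, which shares 147 of the 734 windows of Ccl19, averaged −0.24 in iWAT and −1.74 in eWAT. No level is given here for Gm2564, which shares 458.

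Cxcl13 (gene 55985, chr5:95956939-95961068, plus strand), the CXCR5 ligand that draws B cells into follicles, averaged 4.97 log2 CPM in iWAT and 1.38 in eWAT. The difference was 3.59, or 12.03-fold, and 0.616% of compared genes had a larger one. It was close to that of Ccl19, but Ccl19 lies near the lowest value in eWAT. With the lowest value subtracted, Cxcl13 differed by 3.70 and Ccl19 by 4.51. The Cxcl13 transcript shares no 40-base window with another gene, so the uncertainty between copies of Ccl19 and Ccl21a does not touch it.

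Chst4 and Glycam1 both contribute to the sugar-bearing ligands of venules, and their levels in the depots went opposite ways. Glycam1 (gene 14663, chr15:103562759-103565081, minus strand), which encodes a secreted mucin of high endothelial venules and of the lactating mammary gland, averaged 1.90 log2 CPM in iWAT and sat at the lowest value of the eWAT table, so no fold is given. Chst4 (gene 26887, chr8:110029075-110039401, minus strand), the sulfotransferase that adds sulfate to these sugars, averaged 0.52 in iWAT and 2.66 in eWAT. The difference of −2.14 corresponds to a 4.41-fold higher average in eWAT, and 0.798% of compared genes had a lower one.

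Chst4 shared its direction with the genes of a mesothelial list and with 3 keratins. All 8 genes of the mesothelial list were over 2-fold higher in eWAT, against 4.46% of all compared genes. The list was chosen after these values were seen, so its count and median give no test. Of the 8, 5 were under 1 CPM in iWAT and met the rule only through eWAT. The median difference was −5.54, with a summed level of 402 CPM in eWAT against 9.89 in iWAT. Upk3b, a uroplakin of mesothelium, averaged 149 CPM in eWAT and 0.189 in iWAT, and mesothelin (Msln) 61.0 and 0.248. The keratins Krt8, Krt18 and Krt14 were the 3 genes of 10 on a mammary epithelium list that could be compared. Their log2 differences were −4.38, −3.63 and −4.56. All 3 were under 1 CPM in iWAT and met the rule only through eWAT, so their direction was fixed by it. Epcam, an epithelial gene of the same list that was not compared, averaged 0.873 CPM in iWAT and 0.349 in eWAT. The part of mesothelial and epithelial cells in the level of Chst4 was not tested. In iWAT, where Glycam1 averaged 3.74 CPM, all 10 genes of the mammary list were under 1 CPM and summed to 2.80 CPM, against 17.7 in eWAT. A gene at the lowest value still adds 0.1416 CPM to such a sum in iWAT and 0.1985 in eWAT. Among the milk genes of the mammary list, Csn2 and Wap sat at the lowest value of both tables. Csn3 lay above it in iWAT only, at −2.31 log2 CPM. Lalba lay above it in both depots, at −2.24 in iWAT and −1.67 in eWAT. The part of mammary cells in the level of Glycam1 was not tested. Of 10 epididymis and testis markers, none reached 1 CPM in either depot. Of 5 muscle markers compared, 2 were over 2-fold higher in eWAT, as Chst4 was, and none in iWAT. These were Acta1 at −1.30 and Actn3 at −3.95. Actn3 was under 1 CPM in iWAT and met the rule only through eWAT.

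Among the receptors, Ccr7 had the largest difference of the 8 genes. Ccr7 (gene 12775, chr11:99144199-99155077, minus strand) averaged 4.40 log2 CPM in iWAT and 0.08 in eWAT, a difference of 4.32 or 19.9-fold, which 0.378% of compared genes exceeded. Cxcr5 (gene 12145, chr9:44511787-44526444, minus strand) averaged 3.16 and 0.06, a difference of 3.10 or 8.55-fold. Il7r (gene 16197, chr15:9506159-9529941, minus strand) averaged 2.95 and 0.56, a difference of 2.40 or 5.26-fold. In eWAT all 3 receptors stood between 1.04 and 1.47 CPM, near the level of 1 CPM set for comparison.

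Marco (gene 17167, chr1:120474538-120505024, minus strand), a scavenger receptor of macrophages in lymph node sinuses and the splenic marginal zone, averaged 2.90 log2 CPM in iWAT and 1.24 in eWAT. The difference of 1.66, or 3.15-fold, was the smallest after that of Ccl21a among the 7 genes higher in iWAT. General macrophage markers differed less: of 10, none was over 2-fold higher in iWAT, 1 (Mertk, a receptor for dying cells) was over 2-fold higher in eWAT, and the median difference was 0.64.

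**Figure D3:**
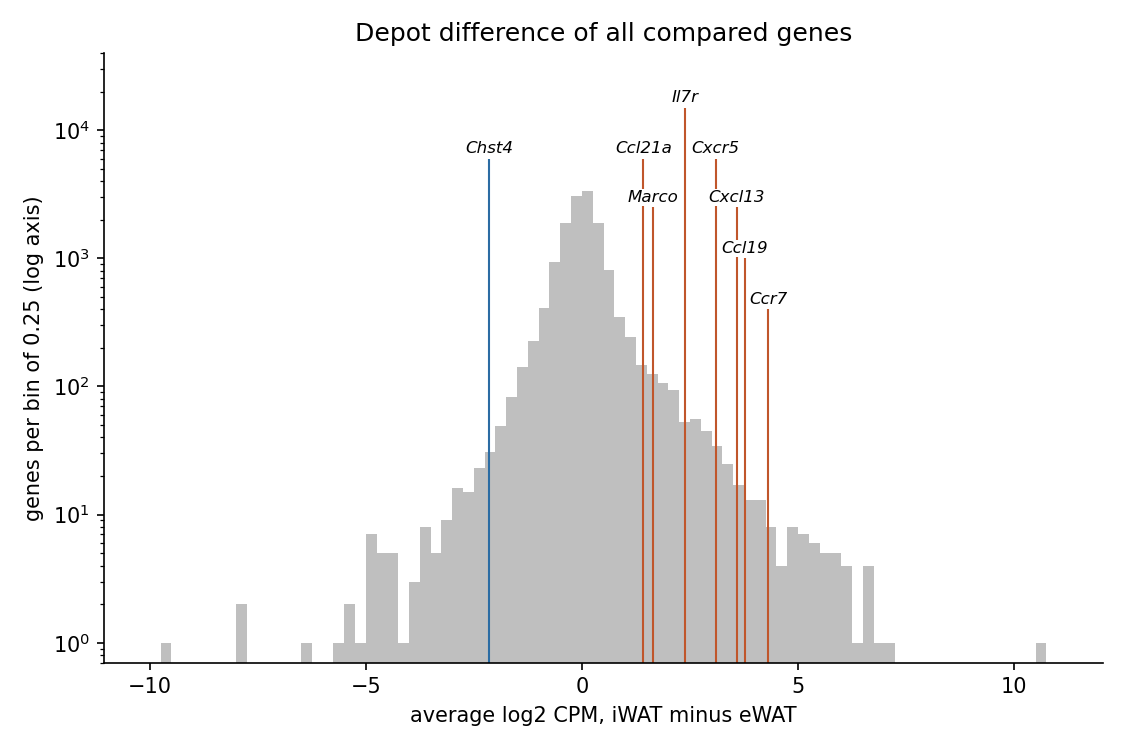
Histogram of the difference in average log2 CPM, iWAT minus eWAT (horizontal axis), over the 14284 compared genes, with the number of genes per bin on a log axis. Vertical lines mark the 8 genes compared, of which 7 lie between 1.42 (Ccl21a) and 4.32 (Ccr7) and Chst4 lies at −2.14.

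Levels of different genes are compared per kilobase of the longest coding transcript. In iWAT the order of the averages was Ccl21a at 44.8 CPM per kilobase, Cxcl13 at 27.2, Ccr7 at 10.7, Ccl19 at 8.52, Glycam1 at 5.83, Marco at 3.87, Cxcr5 at 3.13, Il7r at 2.19 and Chst4 at 0.667. In eWAT Ccl21a again led, at 16.7 CPM per kilobase, and Chst4 came next at 2.94, before Cxcl13 at 2.26 and Marco at 1.23. Ccl19, Ccr7, Il7r and Cxcr5 followed in eWAT between 0.623 and 0.366, and Glycam1 was last at the lowest value of the table. Chst4 thus moved from the last place in iWAT to the second in eWAT. Which neighbours in these orders differ beyond their spread cannot be said without values per sample.

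The other genes of lymphocyte homing varied in their depot difference. Of 16 chemokine and lymphoid organizer genes, 4 were over 2-fold higher in iWAT and none in eWAT, with a median difference of 0.72. Among them were Ltb at 4.06 and Lta at 2.93, the lymphotoxin chains through which lymphocytes act on node stroma, and the TNF family ligand Tnfsf14 at 1.68. Lta and Tnfsf14 were under 1 CPM in eWAT and met the rule only through iWAT. The receptor side did not follow, since Ltbr stood at −0.59 and Tnfrsf1a at −0.48. Relb and Nfkb2, the transcription factors that act downstream of the lymphotoxin receptor, stood at 0.28 and 0.32. Il7, the ligand of the Il7r product, had a difference of −0.10.

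Of 15 genes for venule ligands and adhesion, 4 were over 2-fold higher in iWAT and none in eWAT, with a median of 0.57. They were the addressin Madcam1 (2.49), the fucosyltransferases Fut7 (1.90) and Fut4 (1.53) that add fucose to the venule sugars, and the adhesion molecule Vcam1 (1.01). Madcam1 and Fut7 were under 1 CPM in eWAT, so the rule fixed their direction. Chst2, a sulfotransferase with the same kind of substrate as Chst4, differed by 0.86, in the direction opposite to Chst4. The core of the ligand, Cd34 and Podxl, stood at 0.10 and −0.08. Of 10 endothelial markers none passed 2-fold, and their median was −0.20.

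Of 16 genes of naive lymphocytes, 10 were over 2-fold higher in iWAT and none in eWAT, with a median of 1.31. The transcription factors Lef1 and Tcf7 of naive T cells differed by 3.95 and 3.82. Both were under 1 CPM in eWAT and met the rule only through iWAT. S1pr1, the receptor by which lymphocytes leave nodes and which endothelium also uses, differed by 0.12 and Klf2, a transcription factor of both, by −0.38.

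Follicle and sinus genes split. Of 9 follicle and dendritic stroma genes, 2 were over 2-fold higher in iWAT, and these were Fcer2a at 5.31 and Cr2 at 4.20, which B cells also carry. With both under 1 CPM in eWAT, their direction was fixed by the rule. Pdpn, a surface protein of lymph node stroma, lymphatics and mesothelium, was the 1 over 2-fold higher in eWAT, at −1.54. Of 13 sinus and lymphatic genes, Timd4 (2.81) and Cd209b (2.29), which macrophages of lymphoid tissue carry, and Stab2 (1.31), a scavenger receptor of sinus endothelium, were over 2-fold higher in iWAT. Stab2 was under 1 CPM in eWAT and met the rule only through iWAT. Pdpn, again, and Ackr4, a scavenger of CCL19 and CCL21, at −1.47, were over 2-fold higher in eWAT. The lymphatic genes Lyve1 and Flt4 stood at 0.26 and −0.28.

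B and T cell markers shared the direction of the 7 genes higher in iWAT. All 10 B cell markers were over 2-fold higher there, with a median of 4.32 and a summed level of 229 CPM in iWAT against 10.1 in eWAT, and 6 of them were under 1 CPM in eWAT. Of 10 T cell markers, 9 were over 2-fold higher, with a median of 3.10 and sums of 162 and 24.6 CPM. The 6 B cell and 3 T cell markers under 1 CPM in eWAT met the rule only through iWAT. Their part in the levels of Ccr7, Cxcr5, Il7r and the chemokines was not tested. The list of adipocyte markers had a median of −0.06, with 2 of 10, Lep and Retn, over 2-fold higher in eWAT.

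**Figure D4:**
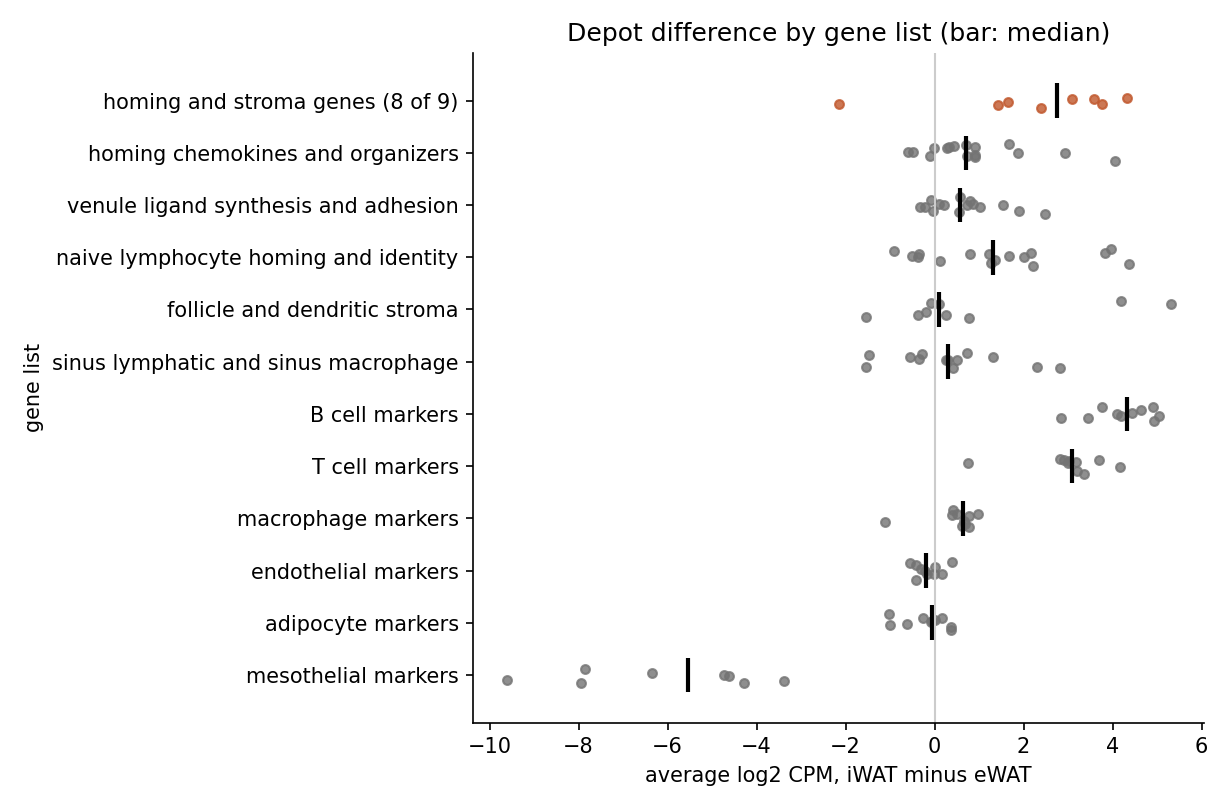
Difference in average log2 CPM, iWAT minus eWAT (horizontal axis), of each compared gene (points) by gene list (vertical axis), with the median as a black bar. The medians are 2.75 for the homing and stroma genes, 4.32 for B cell markers, 3.10 for T cell markers and −5.54 for mesothelial markers. The mesothelial list was chosen after its values were seen. Adipocyte and endothelial points lie around 0.

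RefSeq promoters (GRCm38.p6) matched 7 of the 9 genes, all except Ccr7 and Cxcr5. The 250 bases before the start given in that promoter table, which for Chst4 and Il7r lies inside the span of the gene and for the other 5 at its edge, were searched on both strands for TATAAA, for ATAAAT and for the kappaB motif of NF-kappaB, all chosen after the sequences were seen. Of 27025 promoters of that length, 13.0% hold TATAAA, 12.9% hold ATAAAT and 7.01% hold the kappaB motif. ATAAAT occurred in Ccl19, Ccl21a, Cxcl13 and Glycam1, and TATAAA in Cxcl13, where it overlaps ATAAAT. Neither these nor the kappaB motif occurred in Chst4, Il7r or Marco, and the kappaB motif occurred in none of the 7. In Ccl21a and Glycam1 the first base of ATAAAT lay at −30 and −31 from the start, in Cxcl13 at −169, −45 and −41, and in Ccl19 at −189. A match of letters is a description and no site of binding.

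The promoters of Ccl21a, Cxcl13 and Glycam1, higher in iWAT, and of Chst4, higher in eWAT, are printed with the motif in capitals, 5′ to 3′ on the strand of the gene. Marco, higher in iWAT, is printed beside Chst4 as a promoter without the motif. Ccl19 and Il7r, both higher in iWAT, are not printed; Ccl19 has the motif far upstream and Il7r lacks it, so the motif did not separate the genes by depot. The printed stretches span chr4:42773992-42774241 (minus), chr5:95956689-95956938 (plus), chr15:103565082-103565331 (minus), chr8:110039335-110039584 (minus) and, for Marco, chr1:120505025-120505274 (minus).
Ccl21a: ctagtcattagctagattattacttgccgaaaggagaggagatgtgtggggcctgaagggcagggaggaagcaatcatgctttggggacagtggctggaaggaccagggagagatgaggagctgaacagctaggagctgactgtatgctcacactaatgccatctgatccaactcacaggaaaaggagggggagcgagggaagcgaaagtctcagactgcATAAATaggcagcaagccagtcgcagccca
Cxcl13: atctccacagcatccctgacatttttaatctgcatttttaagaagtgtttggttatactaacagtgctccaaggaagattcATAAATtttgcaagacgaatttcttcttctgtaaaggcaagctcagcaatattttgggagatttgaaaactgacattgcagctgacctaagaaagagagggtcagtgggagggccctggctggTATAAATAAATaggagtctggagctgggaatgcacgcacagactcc
Glycam1: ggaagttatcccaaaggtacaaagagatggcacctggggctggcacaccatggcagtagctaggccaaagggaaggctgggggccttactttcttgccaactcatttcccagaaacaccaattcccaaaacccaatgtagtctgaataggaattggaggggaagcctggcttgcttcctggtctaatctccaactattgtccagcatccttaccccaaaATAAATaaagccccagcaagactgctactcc
Chst4: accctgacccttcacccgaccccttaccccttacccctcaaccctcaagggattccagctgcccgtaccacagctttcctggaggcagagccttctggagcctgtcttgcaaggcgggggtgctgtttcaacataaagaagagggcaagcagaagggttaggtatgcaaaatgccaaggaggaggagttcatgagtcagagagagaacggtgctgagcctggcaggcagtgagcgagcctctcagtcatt
Marco: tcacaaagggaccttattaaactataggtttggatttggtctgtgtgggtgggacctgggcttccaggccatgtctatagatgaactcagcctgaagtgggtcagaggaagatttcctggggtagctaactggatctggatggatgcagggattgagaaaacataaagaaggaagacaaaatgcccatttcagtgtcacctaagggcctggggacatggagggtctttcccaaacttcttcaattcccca
In Ccl21a and Glycam1 the capitals stand near the start, and in Cxcl13 they stand both near it and farther upstream. The guanine and cytosine share of the 5 stretches was 52.8% in Ccl21a, 42.0% in Cxcl13, 49.6% in Glycam1, 56.4% in Chst4 and 47.6% in Marco, against a median of 52.0% over all promoters.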

How the data were processed

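Polyadenylated RNA (200 ng per sample) was sequenced as paired 40-base reads. The authors used Trim Galore 0.6.4 for trimming and Rsubread for alignment, with GRCm38 as the genome, then DESeq2 1.32.0 to drop low counts and edgeR 3.34.0 for the comparison; the counting step and annotation are not given in the sources used here. The value used is the authors' deposited average log2 CPM of each gene per depot. The 12 columns of values per sample, 6 per table, have names that match no sample label and were not used. Columns of the authors' own comparison (fold change, likelihood ratio, p-value, FDR and calls) were not used either. Depth per sample is therefore unknown, and so is the precision it gives.

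Depot differences are iWAT minus eWAT for genes at 0 log2 CPM (1 CPM) or above in 1 depot and above the lowest value (within 1e-09) in both. A gene was counted past a difference of 1 on the log2 scale (2-fold). The planned tests of treatment, of depot among saline samples and of their interaction needed counts tied to labelled samples and were not run, nor was the rule that named list genes by p or chose genes by correlation; list genes named here were chosen after their values were seen, and some genes counted in the lists are not reported here by name. The members and the 14 lists were chosen with earlier results of these data known. Coordinates are from RefSeq (GRCm38.p6), which holds 25275 of the 27179 gene IDs, and 1306 IDs have no symbol in the tables. Transcripts are from GENCODE vM21 (GRCm38). Steps were tested on simulated data. Python 3.11.15, pandas 2.3.3, numpy 2.4.6 and matplotlib 3.10.9 were used.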

Additional observations from a re-analysis of the deposited data

How the results depend on the processing

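The alternatives were chosen after seeing the data, since those planned (normalization, count filter, another count test, samples left out, replicate block) needed values per sample and were not run. No paired analysis was possible because the columns of values per sample carry no replicate number of the labels. Of 5 settings, no filter on the level, a filter of 2 CPM and a threshold of 1.5 on the log2 scale leave the difference of a single gene as it is by construction, and centring on the median shifts all genes by 0.02, so only subtraction of the lowest value could change one. After it all 8 differences kept their direction, and 1 moved by more than 0.5, that of Ccl19, which became 4.51. The threshold of 1.5 left 6 genes higher in iWAT, without Ccl21a, and 1 higher in eWAT, against 4.46% and 1.87% of all compared genes. Averages of low genes lie close to the lowest value, which limits their differences. In eWAT this touches Ccl19, Ccr7, Cxcr5 and Il7r, and in iWAT it touches Chst4, at 1.43 CPM.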
